A study of Homo sapiens with 8 samples.

Results

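Lamins and proteins of the inner nuclear membrane were followed in MOLM-13 cells, a human acute myeloid leukemia line, after loss of the splicing factor PTBP1. The set holds 10 genes, LMNA, LMNB1, LMNB2, LEMD2, LEMD3, EMD, TMPO, LBR, BANF1 and SUN2, among 62639 genes in the table, of which 16474 had a count. It was drawn up around LEMD2 because LEMD2 was lower after PTBP1 knockdown (KD), and the other 9 genes were added as its neighbours at the nuclear envelope. The difference in LEMD2 is therefore a description here and was not tested. The cells carried a lentiviral construct with a doxycycline (dox) inducible shRNA, either against PTBP1 (shPTBP1, genotype label PTBP1 KD) or scrambled (shSCR, labelled shControl, genotype label WT), in 4 biological replicates each. Both constructs also drive mCherry and, under dox, a truncated nerve growth factor receptor, and both groups received dox for 9 days. With 1 shRNA against PTBP1 and 1 control shRNA in 1 cell line, PTBP1 loss and any other effect of the shRNA cannot be told apart. The labels do not say whether the replicates were separate transductions or separate cultures, so p-values measure the spread between these libraries only. Total RNA was read as cDNA on a nanopore instrument, and the authors counted the reads on each annotated transcript.

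The nuclear lamina is a mesh of intermediate filaments under the inner nuclear membrane. B-type lamins stay attached to the membrane through a farnesyl anchor, whereas the A-type lamins A and C, both made from LMNA, are also found in the nuclear interior and are low in many blood cells. Proteins with a LEM domain (emerin from EMD, LAP2 from TMPO, MAN1 from LEMD3, and LEMD2) bind BAF, the small DNA-binding protein encoded by BANF1, and so tie chromatin to the envelope. LEMD2 also recruits the membrane-sealing protein CHMP7 when the envelope re-forms after mitosis. LBR, the lamin B receptor, binds heterochromatin protein 1 and is also a sterol reductase, and SUN2 links the lamina to the cytoskeleton through nesprins.

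The libraries held between 1528449 and 1613342 counts, with 12322 to 12589 genes detected in each. Levels are given as counts per 1000000 after edgeR's TMM normalization (normalized CPM). They carry no correction for transcript length, so levels were compared between groups and not between genes. The targeted gene, PTBP1, lay between 6.33 and 14.7 normalized CPM in the shPTBP1 libraries and between 39.9 and 57.3 in the shSCR libraries. The log2 fold change of PTBP1 stood at -2.26 (SE 0.22, adjusted p = 7.18e-05 in edgeR). All 10 markers of the myeloid leukemia line had counts, although SPI1 held 1 count in all and the rest of that list was led by CD68 and LYZ. The summed level of these markers lay between 1174 and 1347 CPM after shPTBP1 and between 1008 and 1181 after shSCR, and CD68 was higher after shPTBP1 (log2 fold change 0.36, edgeR adjusted p = 0.0194). The list did not move one way, since FLT3 held 18 counts after shPTBP1 and 35 after shSCR, and FCER1G and HOXA9 were at -0.24 and -0.09 on the log2 scale without being called. The part of this shift in the results was not tested. Markers of T cells, B cells, erythroid and epithelial cells each summed to at most 8.60 CPM in any library, and 5 fibroblast genes to at most 23.0 CPM.

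Among the lamins and inner nuclear membrane genes, TMPO, LBR and BANF1 had nearly the same level in both groups. LMNA and SUN2 had fewer counts after shPTBP1, as did LEMD2, without passing or entering a test. The differences of LMNB1 and LEMD3 were not resolved at this depth. That of LMNB2 was not called and depended on shSCR replicate 4, where it was at 0, and EMD could not be compared. Of the 9 genes other than LEMD2, 7 passed the filter on low counts and entered the test. SUN2 and EMD did not. None of the 7 was called at an adjusted p under 0.05 by edgeR's quasi-likelihood test, where 5.54% of all 7597 genes tested were called. DESeq2, which gave an adjusted p for 6 of the 7, and limma-voom also called none. At an unadjusted p under 0.05 edgeR gave 1 of the 7, LMNA, against 19.2% of all genes. The median log2 fold change of the 7 was 0.00, with a range from -0.98 for LMNA to 0.56 for LMNB2, and the median over all genes tested was 0.00. In bulk RNA, fewer cells with a transcript and less of it per cell cannot be told apart.

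**Figure D1:**
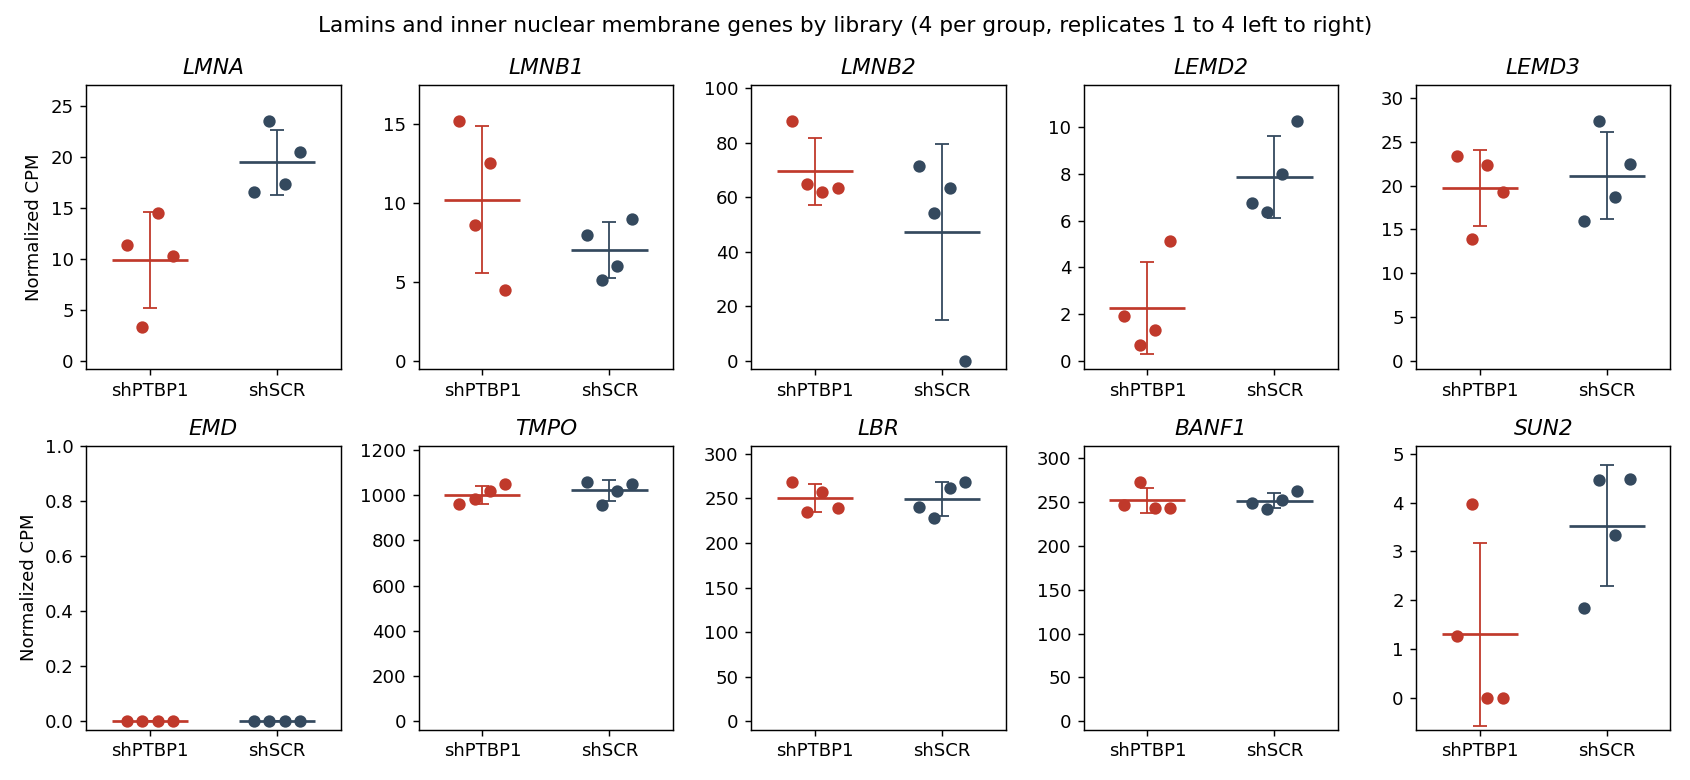
Normalized CPM of the 10 genes in each library (dots, replicates 1 to 4 from left to right in each group), with the mean (line) and SD (bar, n = 4); each panel has its own linear axis. The groups were apart for LMNA and LEMD2, with shPTBP1 lower, as for 6.37% of the genes tested. LMNB2 was at 0 in shSCR replicate 4, and EMD was at 0 in every library.

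LEMD2 (ENSG00000161904, minus strand of chromosome 6 of GRCh38 from 33771202 to 33789130) was the gene around which the set was drawn up. It had 3, 1, 2 and 8 counts in shPTBP1 replicates 1 to 4 and 11, 10, 12 and 16 in shSCR replicates 1 to 4. The normalized levels were 1.90, 0.661, 1.32 and 5.12 CPM after shPTBP1 and 6.76, 6.37, 8.0 and 10.3 CPM after shSCR. The groups did not overlap, as was the case in the lower direction for 6.37% of the genes tested, and LEMD2 was chosen as lower. The library nearest to the shSCR libraries was shPTBP1 replicate 4. The means were 2.25 ± 1.98 CPM (SD, n = 4) and 7.85 ± 1.76 CPM, a log2 fold change of -1.76 (SE 0.48). LEMD2 reached the filter on low counts only through the shSCR libraries. Without shPTBP1 replicate 4 the log2 fold change was -2.52, and with any other library left out it lay between -1.84 and -1.47.

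The counts of LEMD2 fell on 2 annotated isoforms that differ at the end of exon 1 and in their annotated transcript ends. Exon 9, the last, has 1566 bases in LEMD2-201 and 1347 in LEMD2-202. LEMD2-201 (ENST00000293760.10) is protein coding, with 503 codons. LEMD2-202 (ENST00000421671.6) leaves exon 1 at an upstream splice donor and lacks 394 bases (chr6:33788381-33788774, 76.1% G or C). Since 394 is not a multiple of 3, its reading frame stops after 114 codons in exon 2, and it is annotated as a target of nonsense-mediated decay, the pathway that degrades mRNAs with an early stop. The donors of the isoforms and the acceptor they share are shown because they are where the splicing of the isoforms parts. Sequences are the minus strand of GRCh38, 5′ to 3′, with exon bases in capitals and intron bases in lower case, at chr6:33788745-33788804, chr6:33788351-33788410 and chr6:33786745-33786804.
LEMD2-202 exon 1 donor: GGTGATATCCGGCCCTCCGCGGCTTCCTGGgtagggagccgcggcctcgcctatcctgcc
LEMD2-201 exon 1 donor: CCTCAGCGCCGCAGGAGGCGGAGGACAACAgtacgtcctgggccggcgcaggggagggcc
LEMD2 exon 2 acceptor: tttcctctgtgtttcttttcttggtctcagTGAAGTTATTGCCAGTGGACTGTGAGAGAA
Both introns start with gt and end with ag. Of the 30 intron bases before exon 2, 24 are pyrimidines.

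As the reads were assigned, the lower count of LEMD2 after shPTBP1 lay on LEMD2-202. This isoform had 0 counts in shPTBP1 replicates 1, 2 and 3 and 8 in replicate 4, against 9, 10, 12 and 13 in the shSCR libraries. LEMD2-201 had 3, 1, 2 and 0 counts after shPTBP1 and 2, 0, 0 and 3 after shSCR. The coding isoform was thus counted in the 3 shPTBP1 libraries where LEMD2-202 was at 0, and replicate 4 had the opposite pattern. Summed over libraries, LEMD2-202 held 8 counts after shPTBP1 and 44 after shSCR, a ratio of 0.184. It holds most LEMD2 counts after shSCR, and LEMD2 was chosen as lower, so this ratio is a description without a test. LEMD2-201 held 6 and 5 counts, a ratio of 1.22 with a 95% counting interval from 0.309 to 5.04. No difference in the coding isoform was detectable at this depth. A count of 0 allows up to 3 counts, or 1.89 to 1.91 CPM in shPTBP1 replicates 1 to 3. Such intervals and limits cover counting error only. Exons 2 to 8 have the same bounds in both isoforms, so a read that lacks exon 1 could tell them apart only by where it ends. How such reads were assigned cannot be seen from the counts, so the split between the isoforms is uncertain. These isoforms were singled out after their values were seen, and neither was tested for usage.

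**Figure D2:**
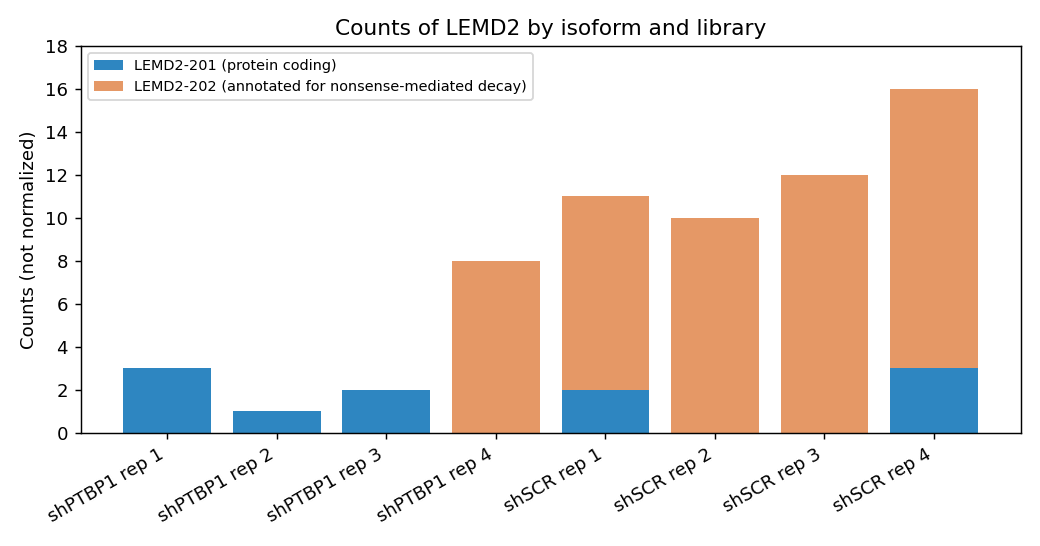
Counts of LEMD2 in each library, not normalized, split into the coding isoform LEMD2-201 and the decay-annotated LEMD2-202 (stacked bars). LEMD2-202 made up most counts of all 4 shSCR libraries and all 8 counts of shPTBP1 replicate 4, and was at 0 in the other 3 shPTBP1 libraries.

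LMNA (ENSG00000160789, plus strand of chromosome 1 from 156082573 to 156140081) encodes lamins A and C. Its counts were 18, 5, 22 and 16 after shPTBP1 and 27, 37, 26 and 32 after shSCR, and the normalized levels were 11.4, 3.30, 14.5 and 10.2 CPM against 16.6, 23.6, 17.3 and 20.5 CPM. All shPTBP1 libraries were below all shSCR libraries, as was the case in the lower direction for 6.37% of the genes tested, and shPTBP1 replicate 2 was the lowest. The mean was 9.85 ± 4.72 CPM after shPTBP1 and 19.5 ± 3.2 after shSCR (SD, n = 4). On the log2 scale the difference was -0.98 (SE 0.30, approximate 95% interval -1.57 to -0.38). The adjusted p of edgeR was 0.0843 and the unadjusted p 0.00645. LMNA was thus not called, and the adjusted p was 0.112 in DESeq2 and 0.0832 in limma-voom. Without the filter on low counts it was called, with an edgeR adjusted p of 0.0478. Without shPTBP1 replicate 2 the log2 fold change was -0.69.

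The 2 main products of LMNA part at exon 10. In lamin C the transcript reads on past the end of that exon to a stop codon, whereas in prelamin A, from which lamin A is cut, exon 10 is joined to exon 11. Transcripts were grouped by the stop codon they share, and 4 such classes of LMNA and TMPO that held at least 5% of the counts of their gene were compared.

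Lamin C held most of the LMNA counts in both groups. The counts were not corrected for length, with 2029 bases in LMNA-238 (lamin C) and 3178 in LMNA-205 (prelamin A). Its share of the LMNA counts was 72.2%, 60%, 72.7% and 68.8% in shPTBP1 replicates 1 to 4 and 70.4%, 62.2%, 76.9% and 75.0% in the shSCR libraries, with means of 68.4% ± 5.89 and 71.1% ± 6.57 (SD, n = 4). Prelamin A held 27.8%, 20%, 13.6% and 18.8% after shPTBP1 and 25.9%, 37.8%, 23.1% and 18.8% after shSCR, with means of 20.04% ± 5.85 and 26.4% ± 8.18. The shares overlapped between the groups for both products (two-sided exact permutation tests over 8 libraries, p = 0.514 for lamin C and p = 0.286 for prelamin A, both 0.514 after adjustment over 4 classes, smallest p possible 0.0286). Summed over libraries, 43 of 61 counts were lamin C after shPTBP1 (70.5%, 95% Wilson interval 58.1 to 80.4%) and 86 of 122 after shSCR (70.5%, 61.9 to 77.9%). Both intervals are wide enough that a moderate shift between the products would not have been detectable. Prelamin A took 12 of 61 counts after shPTBP1 (19.7%) and 33 of 122 after shSCR (27.0%). The rest of the LMNA counts lay on transcripts of neither class. A lower share of 1 product is therefore not by itself a shift to the other.

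LMNB1 (ENSG00000113368, chromosome 5 from 126776623 to 126837020) and LMNB2 (ENSG00000176619, chromosome 19 from 2427638 to 2456959) encode the B-type lamins. LMNB1 had 24, 13, 19 and 7 counts after shPTBP1 and 13, 8, 9 and 14 after shSCR. The groups overlapped, with the highest library (15.2 CPM) and the lowest (4.48 CPM) both after shPTBP1, and the log2 difference was 0.53 (SE 0.36, adjusted p = 0.469 in edgeR). LMNB2 had 139, 98, 94 and 99 counts after shPTBP1 and 116, 85 and 95 in shSCR replicates 1 to 3. In shSCR replicate 4 it was at 0, although the total of that library was like the others. All LMNB2 counts fell on 1 isoform, LMNB2-201. A count of 0 in 1 library beside at least 50 in each of the other 7 was found for 4 genes, among 3315 genes with at least 50 counts in 7 or more libraries, and 2 of the 4 zeros were in shSCR replicate 4. With all libraries the log2 difference of LMNB2 was 0.56 (SE 0.48, adjusted p = 0.58 in edgeR), and limma-voom put it at 2.03 without calling it. Without shSCR replicate 4 it was 0.14 (adjusted p = 0.688 in edgeR).

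TMPO (ENSG00000120802, plus strand of chromosome 12 from 98515579 to 98550351) encodes the LAP2 proteins. It lay between 959 and 1047 normalized CPM after shPTBP1 and between 954 and 1059 after shSCR, so that the range of one group was almost the range of the other. Its log2 fold change was -0.03 (SE 0.06, 95% interval -0.14 to 0.08, edgeR adjusted p = 0.849). With 1487 to 1724 counts per library it is the most precisely measured gene of the set. TMPO-AS1, an antisense RNA that overlaps it by 844 bases, held 9 and 7 counts in the groups.

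LAP2 alpha, which lacks a membrane anchor and binds A-type lamins inside the nucleus, and the membrane-bound LAP2 forms part after exon 3 of TMPO. LAP2 alpha (TMPO-202, 694 codons) goes on into an exon of 2812 bases that ends the transcript, and LAP2 beta (TMPO-212, 454 codons) skips to a downstream exon of 98 bases. The competing acceptors are shown on the plus strand of GRCh38 with exon bases in capitals, at chr12:98532793-98532852 and chr12:98537445-98537504.
TMPO-202 exon 4 acceptor: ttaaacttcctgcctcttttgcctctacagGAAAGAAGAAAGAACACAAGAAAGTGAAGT
TMPO-212 exon 4 acceptor: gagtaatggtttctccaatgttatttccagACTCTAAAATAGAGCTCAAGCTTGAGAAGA
Before the LAP2 alpha exon 22 of 30 intron bases are pyrimidines, and 17 of 30 before the LAP2 beta exon.

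The choice between these ends did not differ detectably. LAP2 alpha held 6.66%, 6.52%, 6.74% and 7.33% of the TMPO counts after shPTBP1 and 5.80%, 9.67%, 7.78% and 7.04% after shSCR, and the shPTBP1 values lay inside the range of the shSCR values. The means were 6.81% ± 0.358 and 7.57% ± 1.62 (SD, n = 4, two-sided exact permutation test, p = 0.457, adjusted p = 0.514). The membrane-bound class held 93.1% ± 0.314 and 92.3% ± 1.53 (p = 0.4 by the same exact test, adjusted p = 0.514). Summed over libraries, LAP2 alpha took 422 of 6183 counts after shPTBP1 (6.83%, 95% Wilson interval 6.22 to 7.48%) and 479 of 6386 after shSCR (7.50%, 6.88 to 8.17%). Most of the membrane-bound counts were TMPO-212, at 90.8% ± 0.203 and 89.9% ± 1.58 of the gene. The shorter TMPO-204, which skips 3 of the exons of TMPO-212, held 2.08% in both groups.

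**Figure D3:**
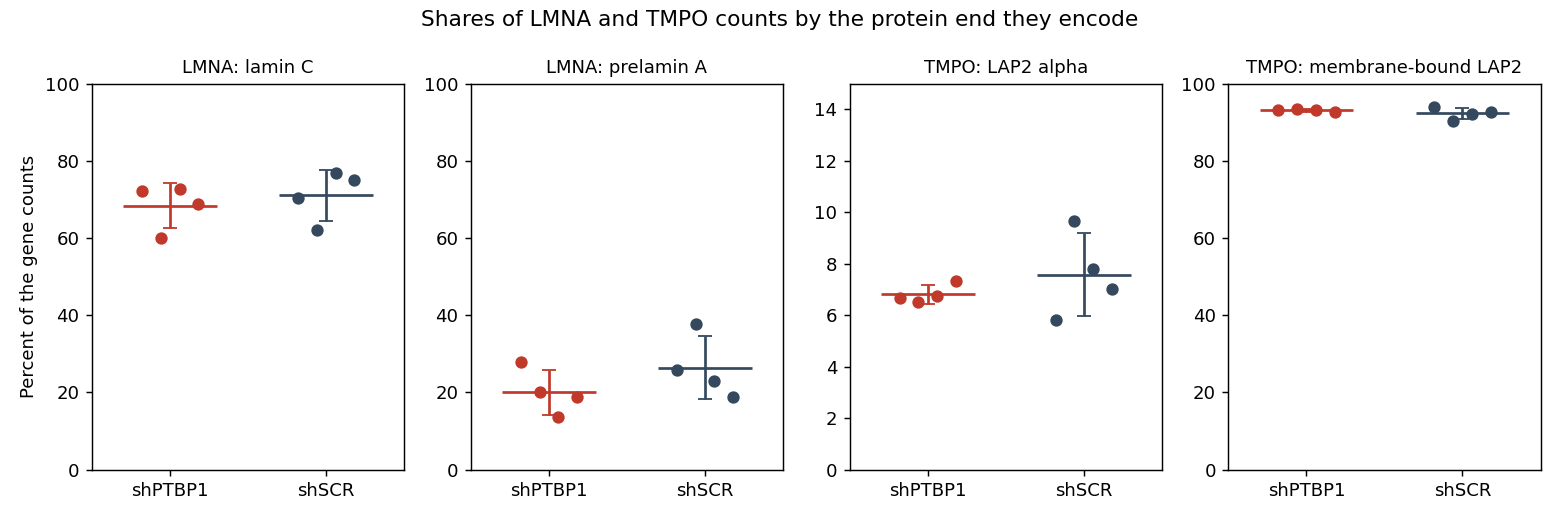
Percent of the LMNA counts on lamin C and prelamin A transcripts and of the TMPO counts on LAP2 alpha and membrane-bound LAP2 transcripts, in each library (dots, replicates 1 to 4 from left to right), with mean and SD (n = 4). The axis for LAP2 alpha ends at 15% and the others at 100%. The groups overlapped in every panel.

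**Figure D4:**
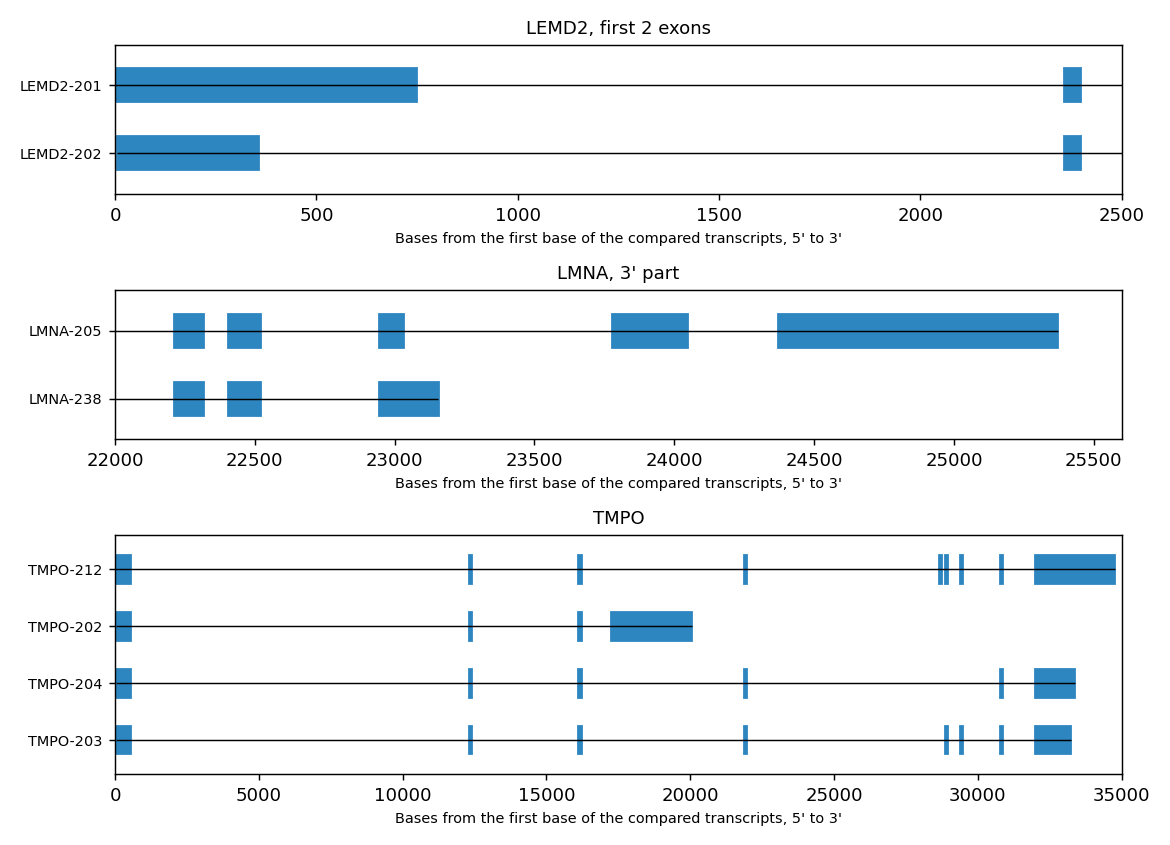
Exons (boxes) and introns (lines) of the compared isoforms, drawn to scale in bases from the start of the transcripts. LEMD2-202 has a shorter exon 1 than LEMD2-201, the lamin C transcript LMNA-238 ends in a longer exon 10 than LMNA-205, and the LAP2 alpha transcript TMPO-202 ends in an exon that the other TMPO isoforms skip.

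LEMD3 (ENSG00000174106, chromosome 12 from 65169583 to 65248355) encodes MAN1, which also restrains SMAD signalling. It had 37, 21, 34 and 30 counts after shPTBP1 and 26, 43, 28 and 35 after shSCR, all on LEMD3-201, and the groups overlapped (log2 fold change -0.10, SE 0.22, 95% interval -0.53 to 0.33, edgeR adjusted p = 0.866). EMD (ENSG00000102119, chromosome X from 154379273 to 154381574), which encodes emerin, is listed at 0 in all 8 libraries. With the limit that a count of 0 allows, this leaves room for up to 1.859 to 1.963 CPM per library, for counting error only. Whether reads of EMD were absent or were not assigned to it by the counting cannot be seen from the counts, so the limit is not one on its expression, and the same holds for the 0 of LMNB2. No fold change was computed.

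BANF1 (ENSG00000175334, chromosome 11 from 66002228 to 66004149), which encodes BAF, lay between 243 and 273 normalized CPM after shPTBP1 and between 241 and 262 after shSCR. The groups overlapped, and the log2 fold change was 0.00 (SE 0.07, 95% interval -0.13 to 0.13, edgeR adjusted p = 0.987). LBR (ENSG00000143815, chromosome 1 from 225401502 to 225428925) lay between 235 and 269 CPM after shPTBP1 and between 228 and 269 after shSCR. Its log2 fold change was also 0.00 (SE 0.07, 95% interval -0.14 to 0.15, edgeR adjusted p = 0.985). The approximate 95% intervals of TMPO, BANF1 and LBR thus all lay between -0.14 and 0.15 on the log2 scale. SUN2 (ENSG00000100242, chromosome 22 from 38733290 to 38794143) had 2, 6, 0 and 0 counts after shPTBP1 and 3, 7, 5 and 7 after shSCR. Its ratio of summed counts, 8 to 22, was 0.368 with a counting interval from 0.142 to 0.859. The libraries overlapped between the groups, and the gene was below the filter. Its annotated span also overlaps that of DNAL4 on the same strand and GTPBP1 on the other, which held 126 and 97 counts after shPTBP1 and 174 and 139 after shSCR.

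Isoform usage could be tested with edgeR's diffSpliceDGE for 7 isoforms of TMPO, LBR and BANF1. None was called at an adjusted p under 0.05 with a change of at least 10 percentage points in the mean share, where 1.12% of the 5464 isoforms tested were called, and none of the 7 had an unadjusted p under 0.05 either. BANF1-201 held 76.3% ± 2.23 of the BANF1 counts after shPTBP1 and 73.2% ± 1.45 after shSCR, with overlapping libraries. LBR-201 held 92.6% ± 2.28 of the LBR counts after shPTBP1 and 91.9% ± 1.38 after shSCR. BANF1-202, which starts 275 bases upstream of BANF1-201, has another start and splice donor in its first exon and has the same number of codons, 89, held 21.8%, 21.5%, 22.2% and 19.5% of the BANF1 counts after shPTBP1. In the shSCR libraries it held 22.8%, 25.6%, 24.6% and 26.2%. All shPTBP1 shares were below all shSCR shares, a separation seen in 10.7% of the isoforms tested. The means were 21.3% ± 1.22 and 24.8% ± 1.51 (SD, n = 4). In diffSpliceDGE of edgeR the unadjusted p was 0.174 and the adjusted p was 1.00. In an exact permutation test, which was added after the values were seen, p was 0.0286, the smallest it can give, and 0.2 after adjustment over the 7 isoforms. This adjusted value is the lowest that a single isoform alone can reach.

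The partner genes of the nuclear envelope were taken from 5 lists with 48 genes in all, of which 37 were tested. edgeR called 3 of them lower and none higher, against 3.19% and 2.36% of all genes tested. The median log2 fold change was -0.05, beside 0.00 over all genes tested. One gene of the lamin processing list, FNTA, which encodes a subunit of the farnesyltransferase that anchors lamins, was called among 4 tested, and ZMPSTE24, the protease that trims prelamin A, stood at 0.08 (SE 0.06, edgeR adjusted p = 0.511). In the ESCRT list, whose members seal the envelope, 1 of 11 was called, CHMP1A. CHMP7, the partner of LEMD2, was at -0.24 on the log2 scale (SE 0.35, adjusted p = 0.781 in edgeR). In the list of BAF and chromatin partners, which also holds the sterol reductases TM7SF2 and DHCR7, 1 of 13 was called, CBX5. This gene encodes the HP1 alpha protein bound by LBR. None of 4 tested genes of the LINC complex and torsin list, and none of 5 among other inner nuclear membrane proteins, was called.

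CBX5 lay at 425, 428, 363 and 394 normalized CPM after shPTBP1 and at 560, 494, 491 and 467 after shSCR. The groups did not overlap, as was the case in the lower direction for 6.37% of the genes tested. The log2 difference was -0.32 (SE 0.07, adjusted p = 0.0248 in edgeR). CHMP1A was at 48.1, 58.1, 46.1 and 42.3 CPM after shPTBP1 and at 57.1, 83.4, 73.4 and 74.4 after shSCR, with shPTBP1 replicate 2 just above shSCR replicate 1 (log2 fold change -0.57, SE 0.14, edgeR adjusted p = 0.0285). FNTA was at 81.6, 73.3, 78.3 and 104 CPM after shPTBP1 and at 106, 146, 99.4 and 132 after shSCR, again with a slight overlap (log2 fold change -0.52, SE 0.14, edgeR adjusted p = 0.0428). These calls were near the threshold. FNTA was no longer called without shPTBP1 replicate 1, 2 or 3 or shSCR replicate 2 or 4, with edgeR adjusted p from 0.0935 to 0.134, nor in limma-voom, at 0.0572. CHMP1A was no longer called without shPTBP1 replicate 1, 3 or 4 or shSCR replicate 2, 3 or 4, from 0.0594 to 0.0928. CBX5 was no longer called without shPTBP1 replicate 3 or 4 or shSCR replicate 1, from 0.0677 to 0.0938. Without shPTBP1 replicate 3 none of the 37 partner genes was called by edgeR. Over all genes, the calls in that fit were 107 lower and 77 higher, against 242 and 179 with all libraries. At an unadjusted p under 0.05 edgeR gave 10 of the 37 in that fit. With all libraries it gave 8 of the 37, beside 19.2% of all genes.

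**Figure D5:**
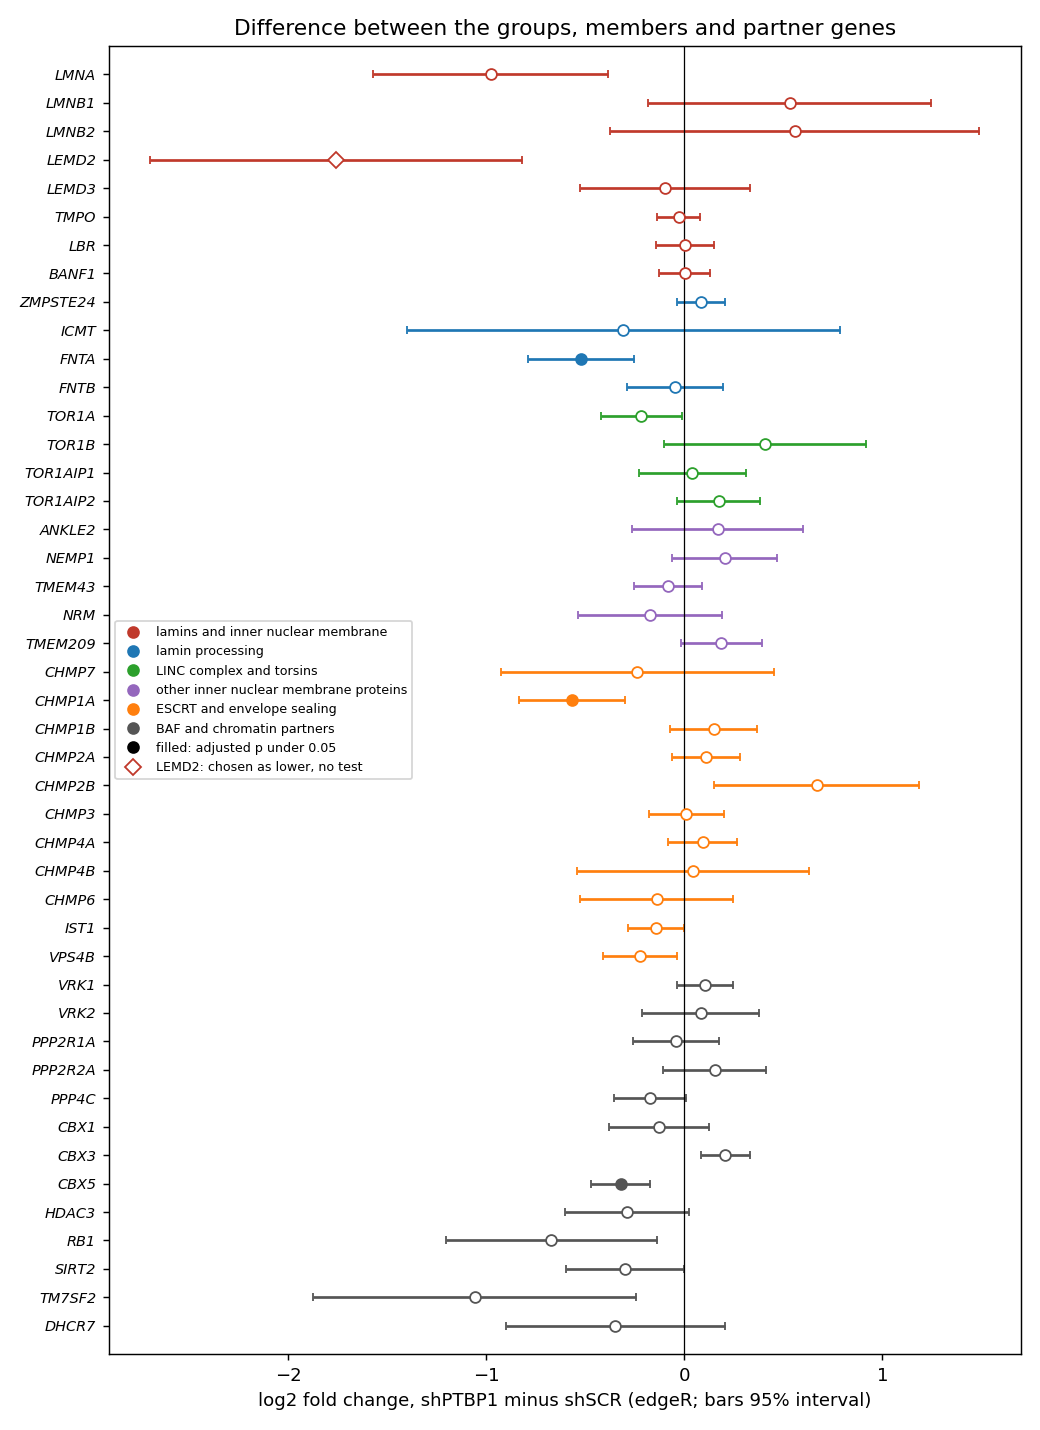
log2 fold change between shPTBP1 and shSCR for the lamins and inner nuclear membrane genes and their partner genes tested (points, with 95% intervals from the SE of edgeR; 4 libraries per group); filled points passed an adjusted p under 0.05, and LEMD2 (diamond) was chosen because it was lower and was not tested. TMPO, LBR and BANF1 lie at 0 with narrow intervals, and CBX5, CHMP1A and FNTA lie below 0.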

How the data were processed

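The 8 MOLM-13 libraries were prepared with nanopore cDNA kits. The authors mapped reads to hg38 with minimap2, kept those above a mapping quality of 50 and deposited StringTie counts per transcript. The versions and the annotation are not given in the sources used here. The second table, named TPM, equals the counts per 1000000 of the library total (largest difference 4.998e-07) and was not used. Transcripts were joined by identifier to GENCODE version 44 (GRCh38) and summed per gene. The 1508 transcripts not found there were left out.

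Genes passing filterByExpr (minimum count 10) were tested in edgeR 4.0.16 (quasi-likelihood, TMM) with the group as the only term, with Benjamini-Hochberg adjustment over all genes. SE was taken as the size of the fitted log2 difference over root F. The 95% intervals of log2 differences are 1.96 SE to each side. They are approximate and narrower than the edgeR test implies. For TOR1A the interval was -0.42 to -0.01, with an unadjusted p of 0.0569 in edgeR. Isoforms were tested with diffSpliceDGE. Shares were compared by exact permutation tests. Alternatives used DESeq2 1.42.0, limma 3.58.1 and other filters, the replicate number as a block, and fits without each library. The tests were tried on simulated data. Scripts ran in R 4.3.3 and Python 3.11.15 (scipy 1.17.1 for tests, pandas 2.3.3 and numpy 2.4.6 for tables, matplotlib 3.10.9 for plots), and the sequences are those of hg38. Splice site sequences of LMNA are not reported here.

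Members and lists were chosen with earlier results of these data known. Named were all 10 members, PTBP1, each partner gene called, member isoforms with a mean share of at least 10% in genes with at least 10 counts in every library, and items said to be chosen later. Libraries of 1 group differed by more than counting error, with squared differences of gene counts 2.05 to 3.75 times those of counting alone.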

Additional observations from a re-analysis of the deposited data

Results flagged for a closer look

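In groups of 4 libraries, a library was singled out when its gap to the next, over the range of the group, passed the 95% critical value of Dixon's test. This was the case in 4 of 38 groups examined, where chance gives about 1 in 20. LMNB2 in shPTBP1 replicate 1 was at 87.9 normalized CPM, above 61.9 to 64.7 in the other shPTBP1 libraries. BANF1 in shPTBP1 replicate 2 was at 273 CPM, above 243 to 247 in the others. LBR-202, an isoform with another first exon, held 8.38% of the LBR counts in shSCR replicate 2 and 5.61% to 5.88% in the other shSCR libraries. LEMD2-202 held 100% of the LEMD2 counts in shPTBP1 replicate 4 (8 counts) and 0% in the other shPTBP1 libraries (1 to 3 counts). The count of 0 for LMNB2 in shSCR replicate 4 did not meet this limit.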

How the results depend on the processing

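Among the 7 tested members other than LEMD2, none was called in the 8 fits that leave out a library, with DESeq2, limma-voom, DESeq2 size factors or a mean of at least 50 counts, which kept 4 of the 7, while the fit without a filter on low counts called 1, LMNA. Among the partner genes 3 were lower and none higher. The number lower ranged from 0 to 2 with a library left out, and a mean of at least 50 counts added 1 higher. Isoform usage and the stop codon classes kept a count of 0 in every setting run. For the classes, a change confined to LMNA or TMPO could not have been called after adjustment over 4 classes. With the replicate number as a block, 0 members, 3 partner genes and 0 member isoforms were called. The numbers gave no sign of pairing. Deviations from the group means in same-numbered libraries correlated at -0.0350 to 0.00917 across genes, and in libraries of unlike number at -0.0428 to 0.0423. Low counts weaken such correlations, so a weak pairing would not have been seen. Signs turned for LBR, BANF1, LEMD3 and the lamin C share, none of which was called. With a mean of at least 50 counts LBR was at -0.0135 and BANF1 at -0.0148, and with libraries left out LBR lay between -0.0362 and 0.0427, BANF1 between -0.0385 and 0.0254 and LEMD3 between -0.21 and 0.0546 (log2). The lamin C share differed by 4.46 points with protein-coding transcripts only and by -5.67 to 0.12 points with libraries left out, against -2.69 points. The protein-coding setting leaves out the LMNA counts of neither class, and the prelamin A share then differed by -4.46 points. The cause of the other sign turns was not tested. With only the transcripts that passed filterByExpr no share of prelamin A could be given. Depth limits LEMD2, SUN2, LMNB1 and LMNA, each at under 40 counts per library.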

Other observations

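The following partner genes were singled out after their values were seen. ICMT, which encodes the methyltransferase that finishes the farnesylated end of lamins, had 23, 21, 21 and 18 counts after shPTBP1 and 25, 0, 25 and 54 after shSCR, so that the lowest and the highest library were both shSCR (log2 fold change -0.31, SE 0.56, edgeR adjusted p = 0.8287). VPS4A, an ATPase that takes ESCRT filaments apart, had 0, 4, 0 and 0 counts after shPTBP1 and 12, 7, 2 and 0 after shSCR and was below the filter. TM7SF2, a sterol reductase with the same activity as LBR, had 7, 8, 1 and 8 counts after shPTBP1 and 11, 13, 13 and 14 after shSCR, and was not called (edgeR adjusted p = 0.18). It passed the filter on low counts only through the shSCR libraries, and its groups did not overlap, as was the case in the lower direction for 6.37% of the genes tested. CBX3, a relative of CBX5, was between 287 and 321 CPM after shPTBP1 and between 253 and 270 after shSCR (log2 fold change 0.21, SE 0.06, edgeR adjusted p = 0.0752), in the opposite direction to CBX5. The difference between CBX3 and CBX5 was not tested.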
